A study of Caenorhabditis elegans with 2 samples.

Results

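MicroRNA (miRNA) genes of Caenorhabditis elegans were examined for binding of SPTF-2, a zinc finger protein of the Sp family. All 255 nuclear genes annotated as miRNA in Ensembl release 115, leaving out mir-51 to mir-56, were taken, out of 261 nuclear miRNA genes and 46890 nuclear genes of every kind. For each gene the strongest peak summit within 500 bp of the annotated gene start was sought in each of 4 peak lists. The peaks came from chromatin immunoprecipitation sequencing (ChIP-seq) with an antibody against GFP in whole worms of strain OP769, collected as young adults at 64.5 h as a mixed-sex population that had been synchronised by bleaching and L1 starvation. The strain carries the allele unc-119(tm4063) and a stably expressed transgene, wgls769, in which sptf-2 is joined to TY1, EGFP and 3xFLAG tags and which also holds unc-119(+) as a rescue. Its chromatin was sheared by sonication, with fragments of 200 to 800 bp. There were 2 biological replicates in 1 group and no second condition, and the labels do not say how the cultures were kept apart. Whole worms give all tissues together, and binding in few cells and weak binding in many cannot be told apart.

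The pooled list and the list of each replicate held 30000 peaks, and the optimal set of the submitters, which keeps peaks that both replicates rank alike, held 407, all of them the strongest of the pooled list. The deposited signal value is a score on the peak caller's own scale, so ranks within a list (1 being the strongest of 30000) are given beside it and levels are not compared between lists. Replicate values are those of the strongest summit within 500 bp of the gene, which can be another summit than the pooled one. Read totals were not used here and depth is unknown. Peaks of untagged worms were not analysed here. Because each long list holds 30000 peaks, 26.7% of all nuclear bases lie within 500 bp of a pooled summit, and counts below are set beside the share of all nuclear genes that meets the same condition, as descriptions with no test.

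MiRNA genes are transcribed into hairpin precursors that Drosha with its partner Pasha, and then Dicer, cut down to a short mature strand, which an Argonaute protein uses to repress messages that pair with it. Pairing rests mostly on the seed, bases 2 to 8 of the mature strand, and miRNAs with the same or a similar seed are grouped as a family. In C. elegans, lin-4 and let-7 time larval development, the mir-35 family is needed in the embryo, the mir-58 family is related to Drosophila bantam, and lsy-6 sets a left-right difference between taste neurons. Sp proteins are known to recognise the GC box, a short GC-rich element of promoters.

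Mature strands of the families described below are shown, and the capitals mark the seed. The families are small, and exact 95% intervals of their pooled shares (in percent) overlap. They were 63.1 to 100 for mir-35, 18.4 to 90.1 for let-7, 14.7 to 94.7 for mir-58 and 0 to 84.2 for lin-4. Any link between seed and summits was not tested. Letters were read from the RefSeq WBcel235 genome at the positions of the Ensembl annotation, which has a mature arm for 254 of the 255 genes. Of these, mir-87 carried the only optimal peak, all genes with the mir-35 seed had a pooled summit, the let-7 seed was mixed, and the lin-4 seed had none.
mir-87-3p: gUGAGCAAaguuucaggugugc
mir-233-3p: uUGAGCAAugcgcaugugcggga
mir-356.1-5p: uUGAGCAAcgcgaacaaauca
mir-35-3p: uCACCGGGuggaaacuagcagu
mir-39-3p: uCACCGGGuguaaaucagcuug
mir-42-3p: uCACCGGGuuaacaucuacaga
mir-48-5p: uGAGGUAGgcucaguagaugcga
mir-84-5p: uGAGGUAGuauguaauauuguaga
mir-241-5p: uGAGGUAGgugcgagaaauga
let-7-5p: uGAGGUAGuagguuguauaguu
lin-4-5p: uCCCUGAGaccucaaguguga
mir-237-5p: uCCCUGAGaauucucgaacagcu
mir-58.1-3p: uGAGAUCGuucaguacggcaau
mir-80-3p: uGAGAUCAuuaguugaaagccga
mir-60-3p: uAUUAUGCacauuuucuaguuca

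Sequence of 201 bp around the strongest pooled summit is shown for 5 genes, chosen as the gene with the optimal peak, the mir-35 cluster and 3 genes whose summit had a GC box, no tRNA, snoRNA, snRNA or protein-coding start within 500 bp and a match in both replicates. Windows are written 5′ to 3′ along the miRNA gene in WBcel235 coordinates. Capitals mark the GC box core GGGCGG, which reads CCGCCC when it is on the other strand, its longer form GGGCGGG or CCCGCCC, which contains the core, and the CACC box CACCC or GGGTG. The choice was made after the values were seen.
mir-87 summit, chrV:12038817-12039017, minus strand: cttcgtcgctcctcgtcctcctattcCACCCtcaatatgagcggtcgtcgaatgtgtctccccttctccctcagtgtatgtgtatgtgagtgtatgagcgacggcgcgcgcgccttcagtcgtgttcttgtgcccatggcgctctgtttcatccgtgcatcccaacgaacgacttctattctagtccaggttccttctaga
mir-60 summit, chrII:6328842-6329042, minus strand: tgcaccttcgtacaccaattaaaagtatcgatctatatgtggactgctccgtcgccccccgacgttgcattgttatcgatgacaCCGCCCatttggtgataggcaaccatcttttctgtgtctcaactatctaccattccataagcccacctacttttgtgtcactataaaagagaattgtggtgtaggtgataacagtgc
mir-58.1 summit, chrIV:3232948-3233148, plus strand: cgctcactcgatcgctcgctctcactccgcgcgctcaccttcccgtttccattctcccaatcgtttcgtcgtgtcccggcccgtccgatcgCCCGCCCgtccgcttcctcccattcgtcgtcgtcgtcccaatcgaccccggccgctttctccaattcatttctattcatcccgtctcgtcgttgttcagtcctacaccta
mir-8196.1 summit, chrX:2328885-2329085, plus strand: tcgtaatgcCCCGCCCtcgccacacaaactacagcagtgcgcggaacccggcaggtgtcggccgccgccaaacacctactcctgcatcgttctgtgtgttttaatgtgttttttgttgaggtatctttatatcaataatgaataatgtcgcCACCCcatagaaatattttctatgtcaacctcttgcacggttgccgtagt
mir-35 summit, chrII:11537452-11537652, plus strand: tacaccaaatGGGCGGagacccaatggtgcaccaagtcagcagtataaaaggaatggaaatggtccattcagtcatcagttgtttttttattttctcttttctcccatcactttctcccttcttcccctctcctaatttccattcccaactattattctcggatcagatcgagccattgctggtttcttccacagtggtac

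mir-87 was the only member at an optimal peak. The optimal set had a summit within 500 bp of 1 of the 255 genes (0.392%, exact Clopper-Pearson 95% interval 0.00993 to 2.17, which like all intervals here covers counting error only), against 1.21% of all nuclear genes and 0.846% of protein-coding genes, so the share of members was not above the background. Among the 6 genes left out, mir-51 to mir-56, 2 had an optimal summit. The peak at mir-87 (WBGene00003315, minus strand, chrV:12038688-12038781) covered chrV:12038729-12039104, with its summit at 12038917, 136 bp before the gene start. The gene lies within kup-1, on the same strand and outside its exons, and no tRNA, snoRNA, snRNA or protein-coding start was within 500 bp of the summit. Its signal was 114 in the pooled list (rank 162), 52.7 in replicate 1 (rank 472) and 57.9 in replicate 2 (rank 146). The summits of both replicates lay within 39 bp of the pooled one. The window shown above holds no GC box core and 1 CACC box. mir-87 shares the seed UGAGCAA with mir-233 and mir-356.1, whose pooled signals were 32.3 (rank 21973) and 28.9 (rank 27811), near the end of the list. In replicate 2 mir-233 was at rank 29190 and mir-356.1 had no summit, and replicate 1 had none at either gene.

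Below the optimal set, miRNA genes were at summits more often than nuclear genes at large. The pooled list had a summit within 500 bp of 110 of the 255 genes (43.1%, 37.0 to 49.5), against 28.0% of all nuclear genes. The share was 33% for protein-coding genes, 42.6% for genes annotated only as ncRNA and 11.7% for piRNA genes, whose products silence transposons in the germline. Because 15363 of the 46890 nuclear genes are piRNA genes, they lower the 28.0%. The share of members was close to that of ncRNA genes. It was far below that of the other small RNA classes, with 84.2% of tRNA genes, 61.6% of snoRNA genes and 55.8% of snRNA genes. Genes that neighbour each other can share a summit, and the 110 genes had 98 distinct strongest summits, 8 of which served 20 genes. Counts of genes are therefore not counts of independent sites.

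**Figure D1:**
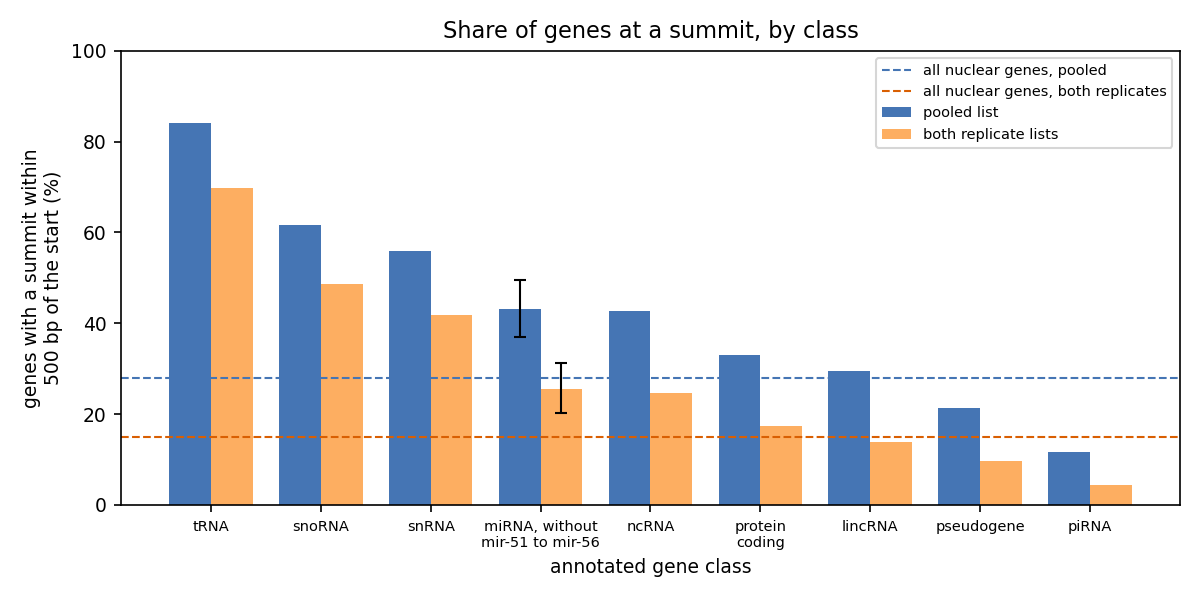
Share of genes with a summit within 500 bp of the start, in percent, for 9 annotated classes in the pooled list and in both replicate lists. Error bars on the miRNA bars are exact 95% intervals for counting error, and dashed lines mark all nuclear genes, at 28.0% (pooled) and 15% (both replicates), with the miRNA bars at 43.1% and 25.5%.

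At the median these summits ranked higher than those at nuclear genes at large, while similar shares were among the strongest peaks. The median signal over the 110 genes was 42.8 (range 28 to 114) and the median rank 9889, against 40 and 12367.5 for all nuclear genes with a pooled summit. As percentages of the list these median ranks were 33 and 41.2. For ncRNA and protein-coding genes with a pooled summit the median ranks were 10670 and 12886. Of the 110, 10 (9.09%) had a summit among the 1000 strongest and 29 (26.4%) among the 5000 strongest, close to the 8.35% and 25.4% of all nuclear genes with a summit. tRNA and snoRNA genes had median ranks of 1557 and 1950. Chromosome II held 28 pooled-summit genes of 49 (57.1%), V 16 of 28 (57.1%), I 14 of 33 (42.4%), III 11 of 27 (40.7%), X 25 of 71 (35.2%) and IV 16 of 47 (34%), with intervals that overlap between every pair of chromosomes.

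The replicates each gave a similar count but differed in which genes it held. Replicate 1 had a summit at 103 members and replicate 2 at 101, against 28.0% and 28.1% of all nuclear genes. Both lists had one at 65 (25.5%, 20.3 to 31.3), against 15% of all nuclear genes. For protein-coding, ncRNA and piRNA genes the shares were 17.4%, 24.7% and 4.28%. With any annotated start counted, that of protein-coding genes was 21.2%, within the interval of members. A further 38 members had a summit in replicate 1 alone and 36 in replicate 2 alone, and 116 had none in either. Of the 65, 59 also had a pooled summit. The 6 without one, mir-74, mir-265, mir-266, mir-785, mir-2221 and mir-4926, ranked between 8999 and 29246 in the replicate lists (all named here after their values were seen). Over the 65 genes the replicate signals had a Spearman rho of 0.419 and a Pearson r of 0.432, given as a description, since the lists share a control alignment and neighbouring genes share summits. Over the 7012 nuclear genes with a summit in both lists rho was 0.396 and r 0.552.

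**Figure D2:**
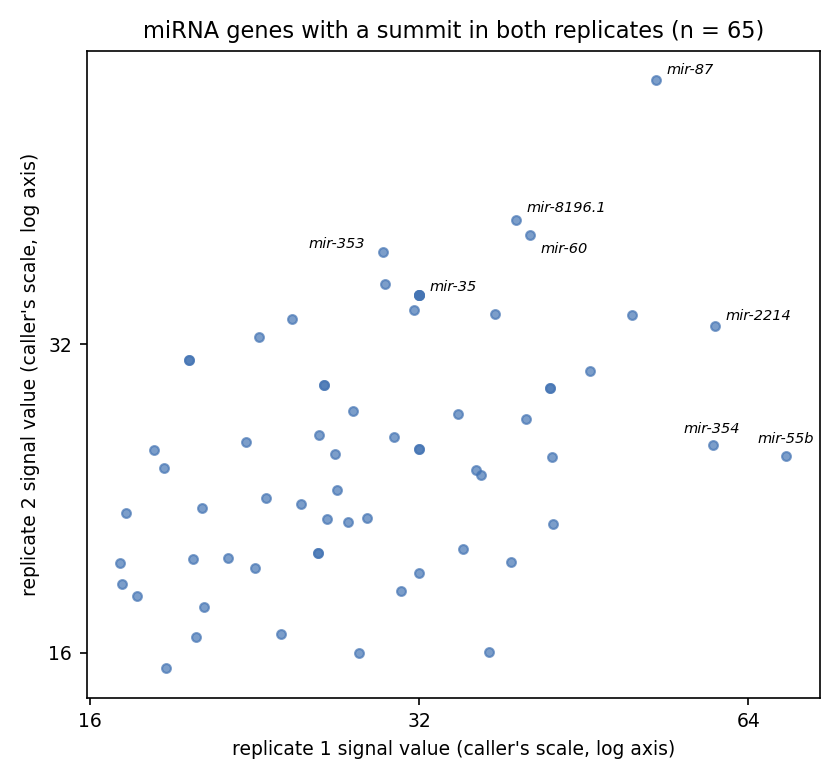
Signal value in replicate 1 (x) and replicate 2 (y), on the caller's scale with log axes, for the 65 miRNA genes with a summit in both; each point is a gene, and darker points are genes that share a summit. mir-87 stands apart at 52.7 and 57.9, while mir-55b, mir-354 and mir-2214 are high in replicate 1 and lower in replicate 2.

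A closer match of position was seen at fewer genes. Taking a replicate summit within 100 bp of the strongest pooled one as a match, 36 of the 110 genes were matched in both replicates, 33 in replicate 1 alone, 27 in replicate 2 alone and 14 in neither. By summit, 30 of 98 (30.6%) were matched in both, against 25.1% of all pooled summits and 92.6% of the optimal ones. Among the strongest 407 peaks of each replicate, the number the optimal set holds, replicate 1 had 4 members (1.57%, against 1.18% of all nuclear genes), replicate 2 had 1 (against 1.08%) and no member was in both (against 0.578%). The 4 of replicate 1 were mir-55b (rank 137), mir-4936 (rank 224), mir-2214 (rank 272) and mir-354 (rank 280), and that of replicate 2 was mir-87. At mir-4936 replicate 1 had a signal of 61.8 while replicate 2 and the pooled list had no summit within 500 bp, the nearest pooled one being 2211 bp away. A start of the protein-coding gene Y53G8AL.4 also lay within 500 bp of the mir-4936 start.

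After mir-87 the next strongest members were led by genes with unequal replicates. mir-55b (WBGene00303113, plus strand, chrX:13144830-13144919), which is annotated antisense to the hairpin of mir-55 and so lies beside genes of the family left out, had a pooled signal of 88.2 (rank 458), 69.4 in replicate 1 (rank 137) and 24.9 in replicate 2 (rank 8094), where the pooled position itself was at rank 9647. mir-2214 (chrIII:7278715-7278778), in an intron of B0361.11, had 86.2 (rank 499), 59.6 (rank 272) and 33.4 (rank 2234), the last from a summit 114 bp from the pooled one. Both were stronger by rank in replicate 1. mir-4932 had 81.0 (rank 663), 50.1 (rank 602) and 34.2 (rank 1979), with the starts of klp-16, a kinesin gene, and smn-1, the worm survival motor neuron gene, within 500 bp of its summit. mir-77 had 79.8 (rank 702), 45.9 (rank 928) and 30.2 (rank 3582), with the snoRNA gene T21B4.20 and the chemoreceptor gene srh-70 starting nearby. At both, the summit cannot be assigned to the miRNA gene rather than to its neighbours.

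mir-60 (WBGene00003288, minus strand, chrII:6328702-6328799) was among the more even ones and had no tRNA, snoRNA, snRNA or protein-coding start within 500 bp of its summit. Its signal was 79.6 in the pooled list (rank 709), 40.5 in replicate 1 (rank 1609) and 41.0 in replicate 2 (rank 779), with the pooled summit 143 bp before the start and a GC box core in the window shown above. mir-8196.1 (chrX:2328994-2329124) was similar, with 63.3 (rank 2009), 39.3 (rank 1848) and 42.3 (rank 646), and a summit 9 bp before the start. Its window holds the longer GC box near 1 end, over 50 bp from the summit. mir-357 and mir-358 shared a summit of 75.6 (rank 910), 42.1 in replicate 1 (rank 1319) and 29.0 in replicate 2 (rank 4342). They lie on the strand opposite to symk-1, the symplekin gene, with a start of C10B5.1 within 500 bp of the summit.

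Ribosomal protein genes host 2 of the strongest members. mir-354, in rps-20, had 71.0 in the pooled list (rank 1205), 59.4 in replicate 1 (rank 280) and 25.5 in replicate 2 (rank 7395), and the start of rps-20 was within 500 bp of the pooled summit. mir-353, in rpl-24.1, had 67.9 (rank 1478), 29.7 (rank 6246) and 39.4 (rank 962), with a start of D1007.10 within 500 bp. At mir-354 the replicate 2 value is from another summit, and at the pooled position replicate 2 had none within 100 bp. mir-271 had 63.8 (rank 1933), 40.1 (rank 1680) and 27.1 (rank 5833), with the start of unc-78, which encodes an actin-binding protein, nearby. mir-47 had 64.3 (rank 1860) from a summit 492 bp before its start, matched at that position at rank 1412 in replicate 1, where the summit fell just beyond the 500 bp limit, and at rank 13716 in replicate 2.

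**Figure D3:**
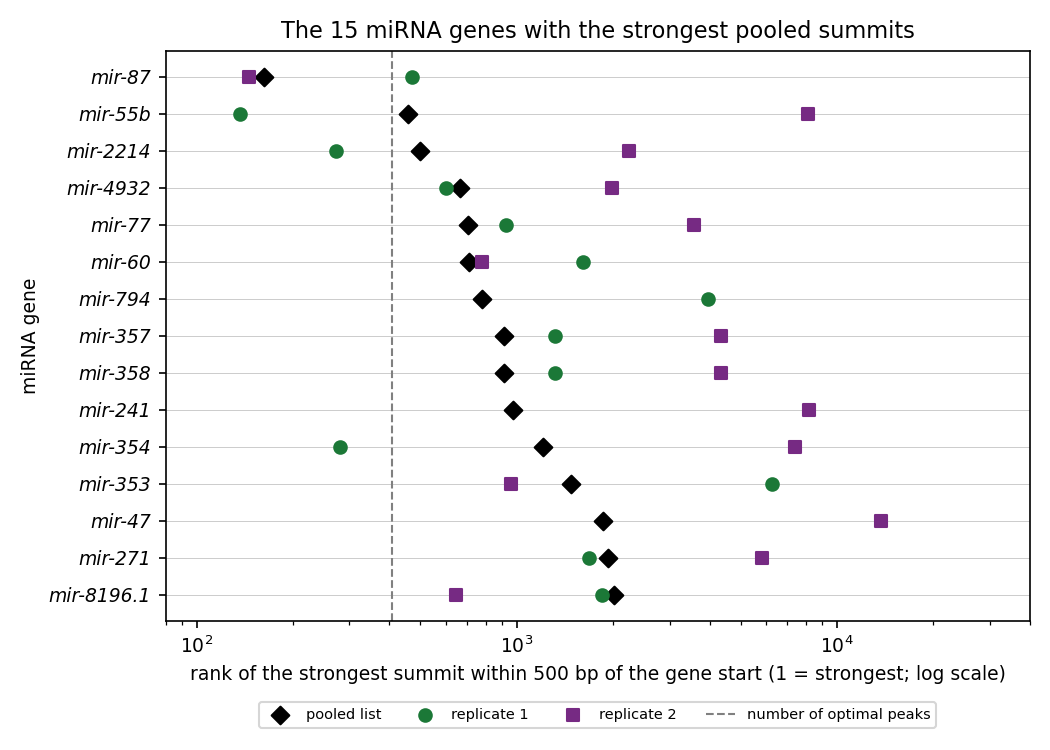
Rank (log axis, 1 being the strongest) of the strongest summit within 500 bp in the pooled list and in each replicate for the 15 miRNA genes of highest pooled signal; a missing symbol means no summit within 500 bp, and the dashed line marks 407. mir-87 lies left of the line in the pooled list and replicate 2, at ranks 162 and 146, and just right of it in replicate 1, at 472.

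The let-7 family split into members with and without a summit. let-7 drives the change from larval to adult fates, and mir-48, mir-84 and mir-241 act together at an earlier larval step. mir-241 had a pooled signal of 74.4 (rank 971), none in replicate 1 and 24.9 in replicate 2 (rank 8148), the nearest replicate 1 summit being 177 bp from the pooled one and beyond the 500 bp limit. mir-48 had 47.9 (rank 6599), 28.7 in replicate 1 (rank 7100) and 21.7 in replicate 2 (rank 13011), from a summit 109 bp from the pooled one. mir-84 had 40.9 (rank 11411), 28.2 (rank 7573) and 16.0 (rank 27921), and at the pooled position replicate 1 was at 21.6 (rank 17289). All of these were weaker in replicate 2 by rank than in the pooled list. mir-794 had 78.1 (rank 778) from a summit 482 bp after its start, and at that position replicate 1 was at rank 3954 and replicate 2 at rank 331, where the replicate 2 summit lay outside 500 bp of the gene.

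let-7 itself had no summit within 500 bp of its gene start in any list. Its annotated gene begins with the primary transcript, and the nearest pooled summit, of signal 67.9, was 753 bp after that start. Most other members start at the hairpin, so the absence at let-7 holds for its annotated start only. mir-793 and mir-795 also had none. By annotated starts, this left 4 of the 7 family members with a pooled summit, and 2 with one in both replicates. Of these 7, 5 carry the seed GAGGUAG (let-7, mir-48, mir-84, mir-241 and mir-795). Among those 5, 3 had a pooled summit and 2 had one in both replicates. mir-794, with the strongest pooled signal of the 7, is not among them. lin-4, which represses lin-14 and lin-28, had its nearest pooled summit 1898 bp away. mir-237, which has the seed of lin-4, had none within 500 bp, but an optimal peak of signal 95.7 (rank 325) lay 586 bp from its start. That summit was 52 bp from the start of a tRNA gene, WBGene00023005, and a second tRNA gene, WBGene00023004, started within 500 bp of mir-237. lsy-6 was 4660 bp from the nearest pooled summit.

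All 8 genes of the mir-35 family had a pooled summit, and 7 of them had one in both replicates. The 8 genes rest on 3 strongest summits, since mir-35 to mir-41 form 1 cluster on chromosome II and mir-42 lies in another with mir-43 and mir-44. The summit nearest to the beginning of the first cluster was 56 bp before mir-35 (WBGene00003263, plus strand, chrII:11537608-11537704) and served mir-35 to mir-38, with a pooled signal of 50.8 (rank 5220) and, within 500 bp, 32.0 in replicate 1 (rank 4558) and 35.8 in replicate 2 (rank 1576). Replicate 2 matched its position within 12 bp, whereas the replicate 1 summit was 271 bp away and matched the next pooled summit instead. That summit served mir-39 to mir-41, with a pooled signal of 50.5 (rank 5347), and replicate 2 was at rank 7656 there. A further pooled summit in this cluster, of signal 44.4, lay 10 bp after the start of mir-41 but was the strongest at none of the genes. The summit before mir-42 was weaker, at 34.0 (rank 19407) with 28.6 in replicate 1 (rank 7246) and none in replicate 2. The first cluster lies on the strand opposite to Y62F5A.9, and no tRNA, snoRNA, snRNA or coding start was within 500 bp of the 3 strongest summits.

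Of the mir-58 family, mir-58.1 (WBGene00003286, plus strand, chrIV:3233254-3233350) had the strongest summit, 206 bp before its start, with a longer GC box. Its signal was 54.6 in the pooled list (rank 3898), 31.7 in replicate 1 (rank 4757) and 34.6 in replicate 2 (rank 1870). mir-80 had 31.4 (rank 23426), 21.4 (rank 17662) and 19.8 (rank 16874), the last from a summit 147 bp from the pooled one. Both mir-80 and mir-82 ranked far below mir-58.1 in the pooled list. mir-82 had 32.8 (rank 21070), 25.9 in replicate 1 (rank 10106) and none in replicate 2. mir-81 and mir-58.2 had none, with the nearest pooled summits 1497 and 636 bp away. mir-58c is outside the family as listed here but shares the seed GAGAUCA with mir-58.2, mir-80, mir-81 and mir-82. It had 34.7 (rank 18527) in the pooled list, from a summit matched within 100 bp in neither replicate. The seed of mir-58.1 is GAGAUCG.

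The genes mir-1, mir-34, mir-71 and mir-124 each had a pooled summit, while lsy-6, described above, had none. mir-1, which is made in muscle, had a pooled signal of 58.5 (rank 2850), 30.4 in replicate 1 (rank 5722) and 26.0 in replicate 2 (rank 6866), from a summit 137 bp before its start. mir-124, made in sensory neurons and lying in the ion channel gene trpa-1, had 48.7 (rank 6198), 24.95 (rank 11364) and 22.3 (rank 11828). mir-34, linked to stress responses, had 48.6 (rank 6262), 25.9 (rank 10087) and 26.1 (rank 6761). At these 3 the replicates matched the pooled position within 100 bp and no tRNA, snoRNA, snRNA or coding start was near. mir-71, which lengthens lifespan, had 45.1 (rank 8269) and 33.2 in replicate 1 (rank 3881), and replicate 2 had no summit there.

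Listed together were 16 families, those of let-7, lin-4, mir-2, mir-35, mir-44, mir-46, mir-50, mir-58, mir-64, mir-72, mir-75, mir-87, mir-124, mir-232, mir-238 and mir-251. Of their 55 genes, 31 had a pooled summit (56.4%, 42.3 to 69.7), beside 43.1% of all members and 28.0% of all nuclear genes. Both replicates had a summit at 21 (38.2%), beside 25.5% and 15%. The mir-35 family gave 8 of the 31 genes from 3 summits, and the interval treats genes that share a summit as independent. The seed AUGACAC is shared by 5 genes. The neighbours mir-64, mir-65, mir-66 and mir-229 had no pooled summit and were between 30147 and 30803 bp from the nearest one, with mir-229 at rank 11883 in replicate 2. The fifth, mir-63, had a pooled signal of 43.8 (rank 9152), and both replicates had a summit within 100 bp of that position, with signals of 35.1 (rank 3083) and 20.2 (rank 15919). In the mir-2 family 3 of 4 genes had a pooled summit. mir-250 and mir-61 shared a summit of 54.1 (rank 4065), with ranks of 9738 in replicate 1 and 4181 in replicate 2. These genes were named after their values were seen. Genes named up to mir-400, with let-7, lin-4 and lsy-6, had a pooled summit in 60 of 113 cases (53.1%, 43.5 to 62.5), and those with higher numbers in 50 of 141 (35.5%, 27.6 to 44.0), a split also chosen after the data were seen. In both replicates the shares were 35.4% and 17.7%.

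The starts beside the summits were searched for tRNA, snoRNA, snRNA and protein-coding genes; starts of other classes were not. A tRNA or snoRNA start lay within 500 bp of the strongest pooled summit at 3 of the 110 genes, namely mir-77, mir-5546 and mir-1829.3, and none had an snRNA start there. mir-239.1 had a snoRNA start within 500 bp of the gene start but not of its strongest pooled summit, and mir-237 and mir-1819, with no pooled summit, had a tRNA start within 500 bp. At 31 genes a protein-coding start alone was that close, and at 76 there was neither. By distinct summit, 66 of 98 had neither (67.3%), against 69.4% of all pooled summits, 29 (29.6%) a coding start alone, against 27.8%, and 3 (3.06%) a small RNA start, against 2.77%. The neighbours of member summits were thus close to those of pooled summits at large. Of the 76 genes, 25 were matched within 100 bp by both replicates.

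The share with a pooled summit was higher beside coding starts. It was 34 of 49 (69.4%, 54.6 to 81.7) for miRNA genes with a protein-coding start within 500 bp of their own, and 76 of 206 (36.9%, 30.3 to 43.9) for the others. The same split gave 46.6% and 41.4% of ncRNA genes, 19.8% and 10.6% of piRNA genes, and 27.7% and 20.8% of pseudogenes. Within a protein-coding gene on the same strand the share was 41 of 74 (55.4%, 43.4 to 67.0), on the opposite strand 15 of 29 (51.7%, 32.5 to 70.6), and outside coding genes 54 of 152 (35.5%, 27.9 to 43.7). Among the 132 genes outside coding genes and away from coding starts it was 39 (29.5%, 21.9 to 38.1). The 28.0% of all nuclear genes is not a like background, since it includes coding genes and piRNA genes. Other classes were split by coding starts only and not by placement. Genes in clusters, 20 of 49 (40.8%), and single ones, 90 of 206 (43.7%), had overlapping intervals.

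Along the genes, the strongest pooled summit was before the start at 67 of 110 genes (60.9%) and after it at 43. The median position was 72.5 bp before the start (-72.5), with quartiles at -220 and 182. It lay within 200 bp of the start at 54 genes (49.1%). For the 6593 protein-coding genes with a pooled summit the median was -1, 50.1% were before the start and 43.4% within 200 bp. The annotated start of most miRNA genes is the end of the hairpin and not the promoter, so these distances are from the hairpin.

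**Figure D4:**
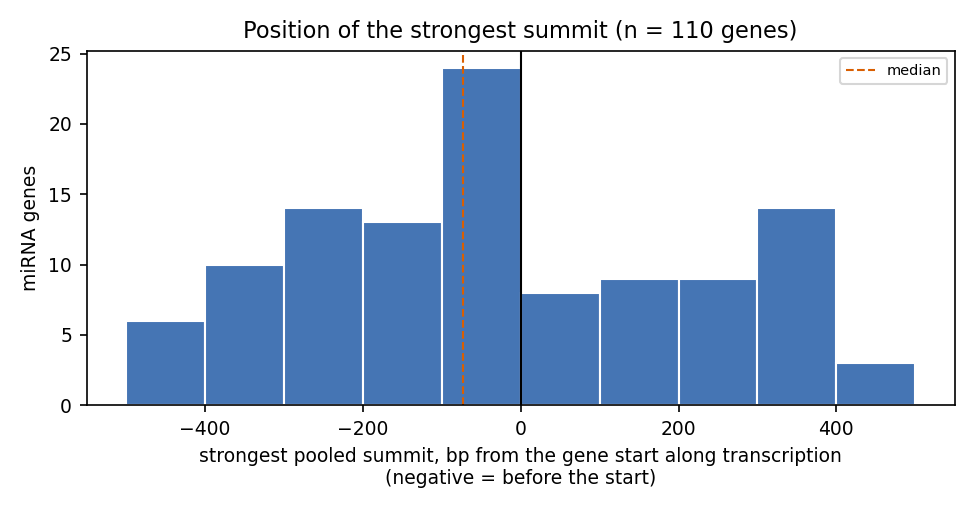
Position of the strongest pooled summit along the direction of transcription, in bp from the gene start, for the 110 miRNA genes with one within 500 bp, in bins of 100 bp. Summits before the start number 67 and those after it 43, and the dashed line marks the median at -72.5.

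GC boxes were more frequent at these summits than at pooled summits at large. Within 100 bp, the core GGGCGG was found on 1 or other strand at 17 of the 98 distinct summits (17.3%), against 1639 of all 30000 pooled summits (5.46%) and 12.3% of the optimal ones. The longer form GGGCGGG, which contains the core, was at 10 (10.2%), against 1.27% and 3.69%. Within 50 bp the core was at 13 of the 98 (13.3%), against 3% of all pooled and 5.41% of optimal summits. The summits shown for mir-8196.1 and mir-35 are not among those 13. The other motifs differed less, with CACCC at 19.4% against 17.2% of all pooled summits, GAGAGA at 23.5% against 14.7% and TATAAA at 18.4% against 14.8%. In the replicate lists the core was at 14 of 89 member summits (15.7%, against 5.27%) in replicate 1 and at 18 of 91 (19.8%, against 5.23%) in replicate 2.

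**Figure D5:**
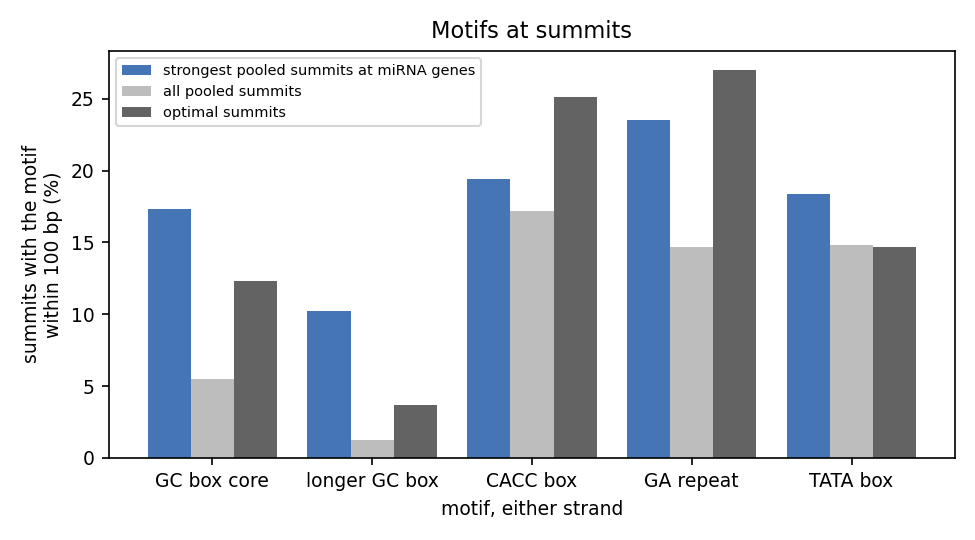
Percentage of summits with a motif on either strand within 100 bp, for the 98 strongest pooled summits at miRNA genes, all 30000 pooled summits and the 407 optimal summits. The GC box core stands at 17.3%, 5.46% and 12.3%, and the longer GC box at 10.2%, 1.27% and 3.69%.

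The genes whose summit held the core included mir-60, mir-47, mir-8196.1, mir-58.1, mir-35 to mir-38, mir-42 to mir-44, mir-2, mir-392, mir-256, mir-264 and mir-80. It was at 14 of 66 summits with no tRNA, snoRNA, snRNA or coding start within 500 bp (21.2%) and at 2 of 30 with a coding start (6.67%). Summits with the core had a median rank of 8380 and those without it 11225, and 6 of 17 against 24 of 81 were matched in both replicates. Base composition moved with this count, with a median GC content of 43.8% in the member windows and 40.8% in all pooled windows. Of the 5 rearranged hexamers of the same bases, GGCGGG was at 16.3% against 5.34%, GGGGCG at 9.18% against 3.42%, CGGGGG at 8.16% against 3.97%, GGGGGC at 8.16% against 3.78% and GCGGGG at 6.12% against 4.2%, all picked once values were known. The longer form GGGCGGG, at 10 of the 98 summits, contains both the core and GGCGGG, so the counts of those hexamers overlap. The part of base composition in the result was not tested.

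The core was also frequent near miRNA genes that had no summit. Within 500 bp of the gene start it occurred at 51 of the 110 members with a pooled summit (46.4%), at 45 of the 145 without one (31.0%), at 16.6% of protein-coding genes and at 15% of all nuclear genes. For the longer form these shares were 20.9%, 11.0%, 4.14% and 3.79%. A match describes these letters in the window and not a bound site.

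Listed as context were 14 genes of the miRNA machinery or of the larval timing pathway of lin-4 and let-7. Of these, 9 had a pooled summit within 500 bp of an annotated start, against 37.0% of protein-coding genes. Both replicates had one at 4, against 21.2%. None had an optimal summit. Those in both replicates were xrn-2, an exonuclease that degrades released miRNAs (pooled signal 67.3, rank 1539, with ranks 3740 and 1738 in replicates 1 and 2), drsh-1, the Drosha gene (64.1, rank 1880, with 3442 and 2506), the Argonaute gene alg-1 (46.8, rank 7198, with 4932 and 9821) and lin-14, the lin-4 target (40.1, rank 12230, with 25396 and 5144). The genes pash-1, lin-41 and lin-46 had a summit in none of the lists.

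The 500 bp limit passed close to several members. The 5 genes just inside it were mir-47 (492 bp from the nearest pooled summit), mir-1832.1 (488), mir-794 (482), mir-4920 (473) and mir-58c (443), and the 5 just outside were mir-246 (505), mir-244 (514), mir-1818 (515), mir-2221 (521) and mir-85 (526). Within 1000 bp, optimal peaks lay at 3 further genes, mir-237 at 586 bp and mir-4921 and mir-4923.1 at 882 and 985 bp from a peak of signal 143 (rank 69). The summits of these peaks were 52 and 27 bp from a tRNA gene start, and the peaks cannot be assigned to the miRNA genes.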

How the data were processed

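The data used were 4 peak lists in narrowPeak format on assembly ce11. In the descriptions deposited with the files, a replicate's list derives from the alignment of that replicate with a control alignment. The pooled list derives from both replicates with that control. The optimal list derives from the other lists, filtered by irreproducible discovery rate. The aligner and the peak caller are not named in these sources, nor are versions and cutoffs. The deposited signal is a score made by the authors' caller, and summits are offsets from the peak start as deposited. No values were left unmapped to a sample or pool.

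Genes came from Ensembl release 115 (WBcel235, the same assembly as ce11, with chromosome lengths compared), and symbols and letters from RefSeq. Python 3.11.15, pandas 2.3.3 and scipy 1.17.1 were used, and the summit search was tested on simulated data. With 1 group, no test between conditions exists, and none was made; intervals are exact 95% binomial ones. Genes were named if they had an optimal summit, were among the 15 strongest or the strongest 407 of a replicate, belonged to the let-7, lin-4, mir-35 or mir-58 families, were lsy-6, mir-1, mir-34, mir-71 or mir-124, or lay at the window edge. Other genes named were chosen after their values were seen. The members and lists were chosen with earlier results of these data known. Alternatives were windows of 250 and 1000 bp, the strongest 10000 peaks, single replicates, shared summits counted once, and summits away from small RNA genes. Added after seeing the data were mir-55b left out and distances from the hairpin.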

Additional observations from a re-analysis of the deposited data

How the results depend on the processing

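Of 58 alternative values, 46 stayed within 1.5 times of the reported count, within 1 SD (5.63 points) for the median rank, or within 0.05 for rho. The number of genes at an optimal summit went from 1 to 4 within 1000 bp (1.57%, against 1.66% of all nuclear genes), and it was 1 to 4 with the strongest 407 peaks of 1 replicate in its place. With the strongest 10000 peaks of each list the pooled count fell to 56 (22.0%, against 11.9% of all nuclear genes), the count in both replicates to 30 (11.8%, against 5.15%) and the count with no tRNA, snoRNA, snRNA or coding start beside the summit to 39. The count in both replicates was 38 within 250 bp (14.9%, against 7.66%) and 99 within 1000 bp (38.8%, against 27.7%). Within 1000 bp, 1 gene stood in the strongest 407 of each replicate. The median rank as a percentage of the list, 33, was 27.2 to 35.1 in single replicates. Spearman's rho between replicates was 0.489 within 1000 bp and reversed to -0.0707 among the strongest 10000 peaks. The cause was not tested. The longer GC box gave 10 summits in place of 17. Leaving out mir-55b or measuring from the hairpin, both chosen after seeing the data, moved no count by over 1.5 times. No paired analysis was possible because there is 1 group. With 1 gene start per gene, the share of members at a pooled summit was above that of protein-coding genes in other windows too. It was 30.2% against 19.0% within 250 bp and 54.5% against 50.9% within 1000 bp, a smaller gap in the wider one. Depth limits what can be said of genes without a summit: lists end at 30000 peaks, and a gene outside them is not shown to be unbound.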
